A study of Mus musculus with 11 samples.

Results

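Translation initiation factor genes were compared between fasted and fed mice in hypothalamus and in cerebellum. They were taken as the probes with 1 gene symbol beginning with Eif and a digit from 1 to 6, without the sex-linked copies Eif2s3x and Eif2s3y, which gave 60 of 34999 probes and 46 of 18048 named genes. By factor these are 2 probes of eIF1 relatives, 14 of eIF2 with its exchange factor eIF2B and its kinases, 15 of eIF3, 23 of eIF4 with its binding proteins, 4 of eIF5 and 1 of eIF6. The last probe, Eif2c5, carries the name series once used for Argonaute proteins, which are no initiation factors, and it is kept because the rule on names includes it. The genes for the alpha subunit of eIF2 and for the scaffold eIF4G1 were not among the named probes and were not analysed here.

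The mice were wild-type SV/129 females aged 10 weeks. One group of 6 lost its food when the dark phase began and was killed 16 hours later, the other 6 kept chow, and both had water. RNA of the 6 mice was pooled per feeding state and region, and each pool was hybridised to CodeLink whole genome arrays, giving 3 arrays each for fed hypothalamus, fasted hypothalamus and fed cerebellum, and 2 for fasted cerebellum after 1 array had failed quality control. Arrays of a group therefore repeat the same RNA: their spread holds no difference between mice, and every test below compares pools and not feeding states.

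Initiation is the step at which a ribosome is loaded onto an mRNA. The factor eIF2 carries the initiator tRNA to the small ribosomal subunit. It is recharged by eIF2B, and 4 stress kinases phosphorylate eIF2, which blocks eIF2B and slows protein synthesis. The large complex eIF3 holds the small subunit and the mRNA together. The factors eIF4E, eIF4G and eIF4A bind the mRNA cap and unwind the leader, and eIF4E is held back by the 4E-binding proteins, which the nutrient-sensitive kinase mTORC1 inactivates. In fasted tissue this control is known to run mainly through phosphorylation, which these arrays do not measure.

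Each deposited value is a ratio to the fed median of the same region. It was divided by the median of its array, and the result is called the scaled ratio here, so fed arrays lie near 1. Changes are log2 fasted minus fed ± SE of a limma fit over all 11 arrays, and calls are those with an adjusted p below 0.05 across all 34999 probes. Signal brightness is not kept in such ratios, so neither the level of a factor, nor a probe near background, nor the labelled tissue could be checked against markers. Because tissue was measured in bulk, fewer cells of a type and less RNA per cell cannot be told apart.

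Most initiation factor probes moved little. In the hypothalamus 55 of the 60 probes changed by less than 0.25 log2 in either direction, and the median size of the change was 0.10, against 0.13 over all probes. In the cerebellum 49 of 60 stayed under 0.25, with a median size of 0.12 against 0.14 over all probes. In the hypothalamus 4 probes were called, 1 higher and 3 lower, or 6.67% where 14.2% of all probes were called. In the cerebellum 10 were called, 5 higher and 5 lower, or 16.7% where 20.9% of all probes were called. With this scaling the share of members called was below that of all probes in both regions. Calls of at least 1.5-fold were 1 in hypothalamus (1.67%, against 1.27% of all probes) and 2 in cerebellum (3.33%, against 4.39%). Called or not, 24 of 60 probes were positive in hypothalamus (40%, against 50.4% of all probes) and 35 of 60 in cerebellum (58.3%, against 51.6%). With arrays scaled to their 75th percentile, which moved the median of all probes by -0.11 in hypothalamus and -0.12 in cerebellum, 18 members were called in hypothalamus (30%, against 26.4% of all probes) and 17 in cerebellum (28.3%, against 31.7%), all of them lower. With no scaling 6 were called in hypothalamus, 1 of them higher (10%, against 16.3%), and 9 in cerebellum, 3 of them higher (15%, against 21.1%).

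**Figure D1:**
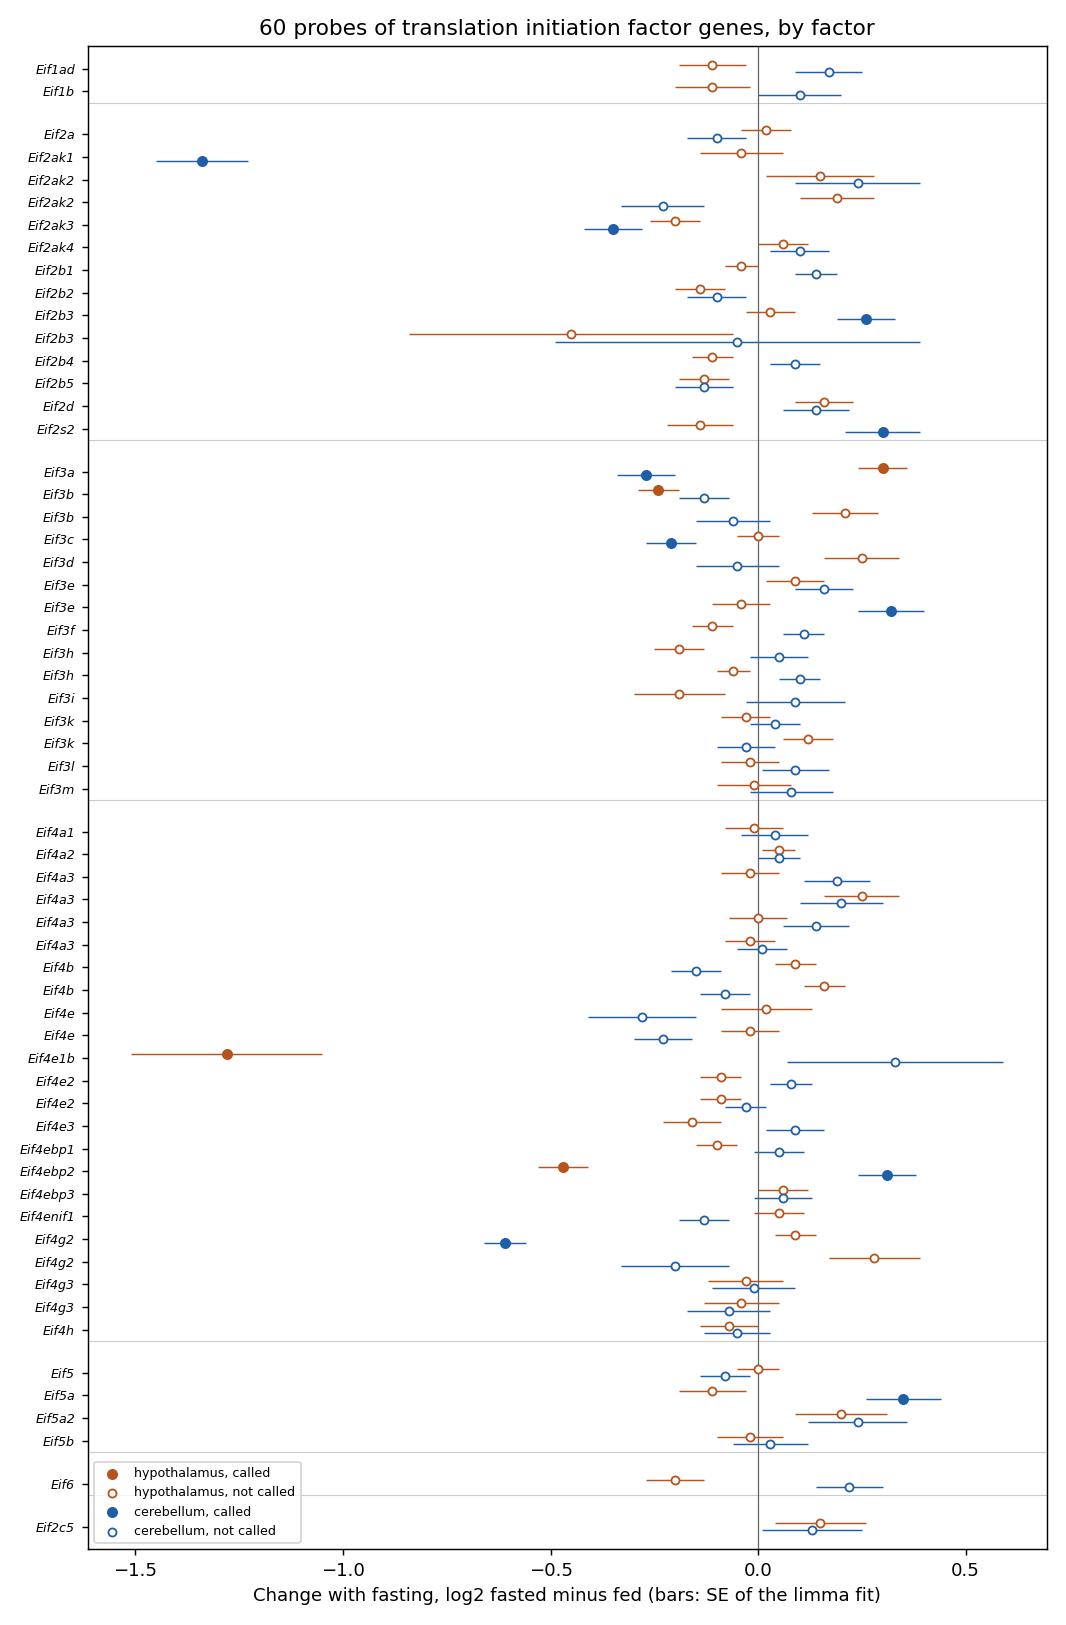
Change with fasting (x axis, log2 fasted minus fed, bars show the SE of the limma fit) of each of the 60 probes, grouped by factor from eIF1 at the top to eIF6, with Eif2c5 last; filled points were called. Most points lie within 0.25 of 0, and the points beyond 0.4 are Eif2ak1 and Eif4g2 in cerebellum and, in hypothalamus, Eif4e1b, Eif4ebp2 and the uncalled second Eif2b3 probe with its wide SE.

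Fasted and fed arrays did not overlap for 19 of 60 probes in the hypothalamus (31.7%, against 37.3% of all probes) and for 35 of 60 in the cerebellum (58.3%, against 50% of all probes). The residual SD between arrays had a median of 0.08 for these probes and 0.09 for all. Several genes carry more than 1 probe, 12 of the 46. Their probes had the same sign in 6 of 12 genes in hypothalamus and in 8 of 12 in cerebellum, and probes of a gene differed by up to 0.48. No gene with several probes had all of them called in a region.

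In the eIF2 group, Eif2ak1 had the largest change of all 60 probes. It encodes the kinase HRI, which phosphorylates eIF2 when heme is scarce. In the cerebellum its scaled ratios were 1.00, 1.05 and 0.952 on the fed arrays and 0.405 and 0.387 on the fasted arrays. Both fasted arrays lay far below all fed arrays. The change was -1.34 ± 0.11 (95% interval -1.59 to -1.09, adjusted p = 6.88e-05), or 2.52-fold lower. In the hypothalamus the fed arrays gave 0.939, 1.03 and 1.00 and the fasted arrays 0.964, 1.11 and 0.823. These overlap, and the change was -0.04 ± 0.10 (adjusted p = 0.79).

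Eif2ak3 encodes PERK, the eIF2 kinase of the endoplasmic reticulum. Its scaled ratios in cerebellum were 1.00, 1.00 and 0.896 in fed and 0.771 and 0.740 in fasted tissue. In hypothalamus they were 1.08, 0.990 and 1.00 in fed and 0.845, 0.887 and 0.944 in fasted tissue. Fasted arrays were below fed arrays in both regions, by -0.35 ± 0.07 in cerebellum (adjusted p = 0.00759) and by -0.20 ± 0.06 in hypothalamus, which missed the threshold (adjusted p = 0.0682). Without replicate 2 of the fasted cerebellum the adjusted p in cerebellum was 0.052.

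The other eIF2 kinases were not called. Eif2ak4 encodes GCN2, which senses uncharged tRNA when amino acids run short. Its fed and fasted hypothalamus arrays gave 1.01, 1.00 and 0.989 against 1.05, 1.11 and 0.983, and its cerebellum arrays 1.00, 1.00 and 0.887 against 1.01 and 1.05. The changes were 0.06 ± 0.06 (95% interval -0.08 to 0.21) and 0.10 ± 0.07 (-0.06 to 0.25). Both probes of Eif2ak2, the kinase PKR that double-stranded RNA activates, stayed uncalled at 0.15 and 0.19 in hypothalamus, and in cerebellum they pointed in opposite directions at 0.24 and -0.23.

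Eif2s2 encodes the beta subunit of eIF2 itself. In cerebellum its scaled ratios were 1.04, 1.00 and 0.928 in fed and 1.19 and 1.25 in fasted tissue. In hypothalamus they were 1.09, 1.00 and 0.909 in fed and 0.877, 0.990 and 0.858 in fasted tissue. Only in cerebellum were the groups apart, and the rise there was 0.30 ± 0.09 (adjusted p = 0.0453), while the hypothalamus stood at -0.14 ± 0.08 (adjusted p = 0.278). The call was lost without any 1 of the 5 cerebellum arrays (adjusted p from 0.0621 to 0.18), without fed replicate 2 of the hypothalamus (0.0672) and without fasted replicate 1 (0.0608) or 3 (0.0545) of the hypothalamus.

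Of 6 probes for subunits of eIF2B, the exchange factor, 0 were called in hypothalamus, where 14.2% of all probes were called. In cerebellum 1 of the 6 was called, where 20.9% of all probes were called. That probe, for the gamma subunit Eif2b3, rose by 0.26 ± 0.07 in cerebellum (adjusted p = 0.0286), with 1.00, 1.01 and 0.974 in fed and 1.22 and 1.17 in fasted tissue. It was named after its values were seen, and the call was lost without any 1 of the 5 cerebellum arrays (adjusted p from 0.0557 to 0.156). The second Eif2b3 probe varied more between arrays, with a residual SD of 0.54, and stood at -0.05 in cerebellum and -0.45 in hypothalamus, neither called. In hypothalamus it read 1.00, 2.94 and 0.902 in fed and 1.05, 0.958 and 1.03 in fasted tissue, so the -0.45 rests on 1 fed array. Eif2b5, the catalytic subunit, read 1.05, 1.00 and 0.905 in fed and 0.883, 0.914 and 0.897 in fasted hypothalamus, and 1.00, 0.973 and 1.02 against 0.869 and 0.950 in cerebellum. It stood at -0.13 in both regions, with SE 0.06 and 0.07, and was not called (adjusted p = 0.171 and 0.2). Eif2b1, Eif2b2 and Eif2b4 lay between -0.14 and 0.14, and Eif2a and Eif2d, both linked to unusual start sites, between -0.10 and 0.16. None of these was called.

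Of the 15 eIF3 probes, 2 were called in hypothalamus and 3 in cerebellum, shares close to the 14.2% and 20.9% of all probes. Eif3a encodes the largest subunit, a scaffold of the complex. Its scaled ratios were 1.00, 1.07 and 0.999 in fed and 1.29, 1.33 and 1.17 in fasted hypothalamus. In cerebellum they were 1.00, 1.04 and 0.945 in fed and 0.824 and 0.821 in fasted tissue. Fasted arrays were all above fed arrays in hypothalamus and all below them in cerebellum. The rise in hypothalamus was 0.30 ± 0.06 (adjusted p = 0.0144) and the fall in cerebellum -0.27 ± 0.07 (adjusted p = 0.0187). The first call was lost without fasted replicate 2 of the hypothalamus (adjusted p = 0.0511). The second was lost without fed replicate 1 (0.0545) or 2 (0.0584) or fasted replicate 1 (0.0857) or 2 (0.0804) of the cerebellum.

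Eif3b, an RNA-binding scaffold subunit, had probes that disagreed in hypothalamus. The called probe read 1.00, 1.02 and 0.987 in fed and 0.924, 0.810 and 0.817 in fasted tissue, a fall of -0.24 ± 0.05 (adjusted p = 0.0243). The other read 0.983, 1.00 and 1.04 against 1.06, 1.24 and 1.19, at 0.21 ± 0.08 (adjusted p = 0.123). In each probe the groups were apart, in opposite directions, so the array gives no common direction for this gene. The called probe lost its call without fed replicate 1 (0.0637) or 2 (0.0777) or fasted replicate 2 (0.0799) or 3 (0.0845) of the hypothalamus. In cerebellum the probes stood at -0.13 and -0.06, not called.

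In cerebellum Eif3e rose and Eif3c fell beside Eif3a. Eif3e read 1.10, 1.00 and 0.987 in fed and 1.29 and 1.27 in fasted tissue, a change of 0.32 ± 0.08 (adjusted p = 0.0178). Its second probe stood at 0.16 ± 0.07 (adjusted p = 0.163). Eif3c, a core subunit, read 1.00, 1.00 and 0.975 in fed and 0.837 and 0.880 in fasted tissue, a change of -0.21 ± 0.06 (adjusted p = 0.0298). In hypothalamus both were near 0, at -0.04 and 0.09 for the Eif3e probes and 0.00 for Eif3c. The Eif3e call was lost without fed replicate 2 (0.0544) or 3 (0.0505) or either fasted replicate (0.0933 and 0.0666) of the cerebellum. The Eif3c call was lost without fed replicate 1 (0.0827) or 2 (0.076) or either fasted replicate (0.179 and 0.0589).

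The remaining eIF3 probes were uncalled in both regions. They belong to Eif3d, Eif3f, Eif3h, Eif3i, Eif3k, Eif3l and Eif3m, which lay between -0.19 and 0.25 in hypothalamus and between -0.05 and 0.11 in cerebellum. Over all 15 eIF3 probes, 6 were positive and 9 negative in hypothalamus, with a median of -0.02, where 50.4% of all probes were positive. In cerebellum 9 were positive and 6 negative, with a median of 0.05, where 51.6% of all probes were positive. Of the 15 changes 13 were uncalled in hypothalamus and 12 in cerebellum.

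**Figure D2:**
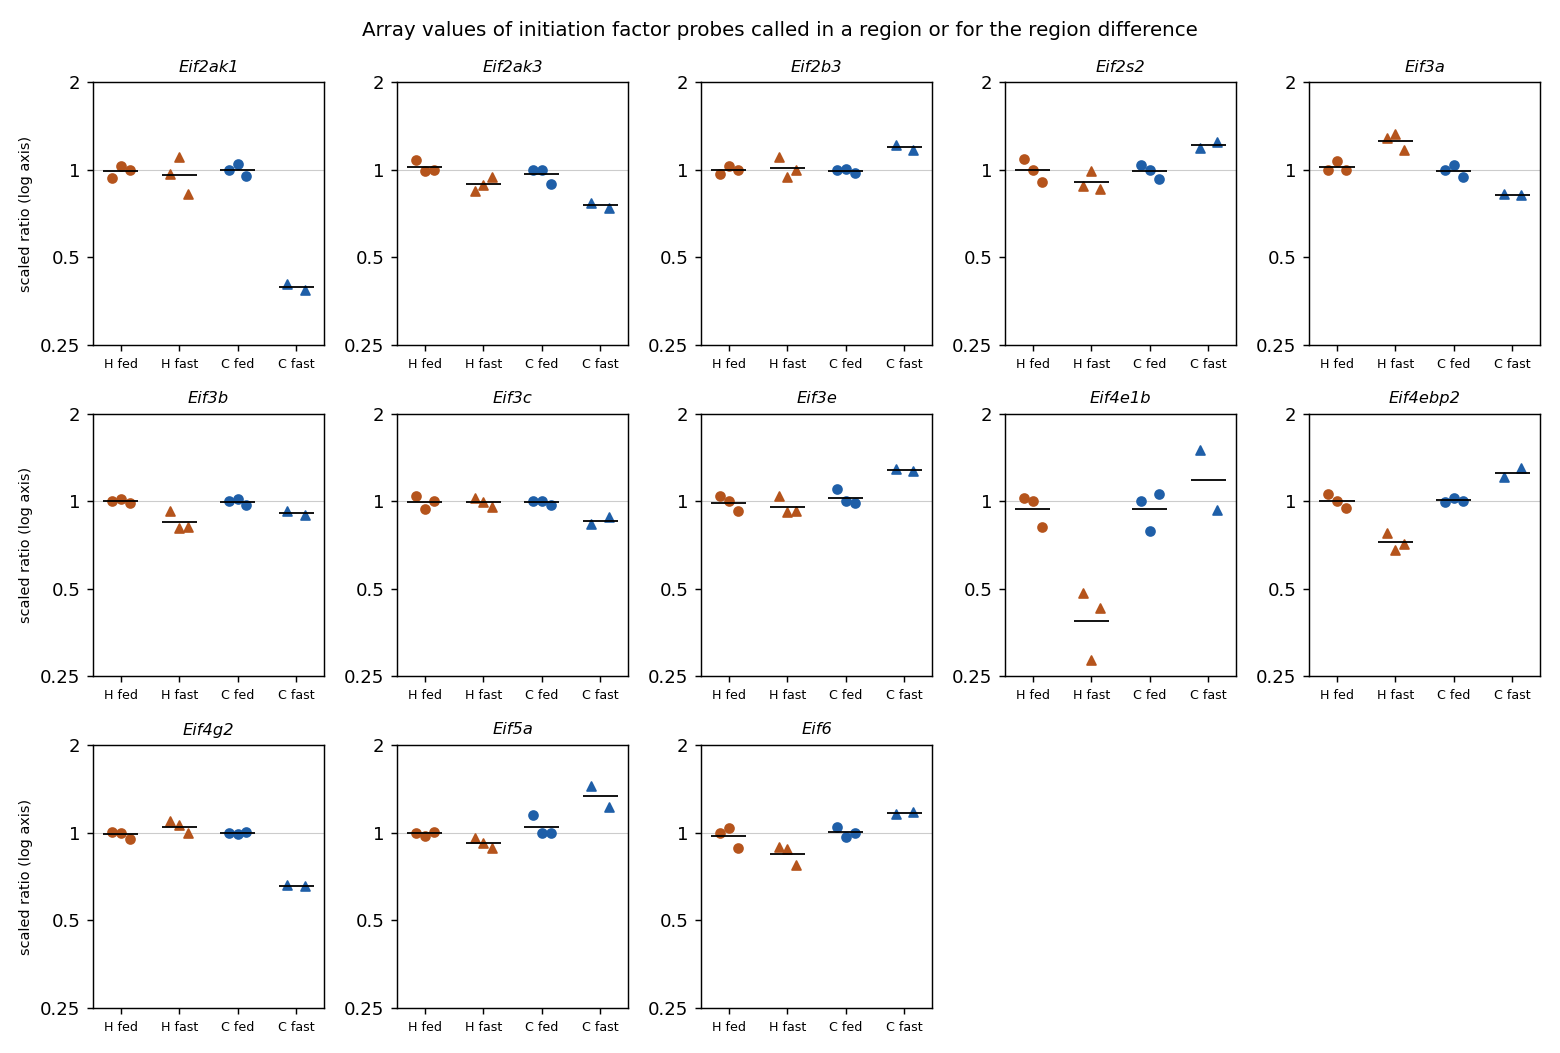
Scaled ratio (y axis, log scale, 1 is near the fed median) on each array for the 13 probes called in hypothalamus, in cerebellum or for the difference between regions; H is hypothalamus, C cerebellum, circles are fed and triangles fasted arrays, and lines show group means of log2 values. Eif2ak1 and Eif4g2 are low on both fasted cerebellum arrays only, Eif4e1b is low on the 3 fasted hypothalamus arrays, and Eif3a and Eif4ebp2 move in opposite directions in the 2 regions.

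In the eIF4 group the cap-binding protein itself was not called. Eif4e has 2 probes. In hypothalamus the first read 1.03, 1.00 and 0.954 in fed and 0.915, 1.07 and 0.960 in fasted tissue, and the second 1.00, 1.05 and 0.980 against 0.958, 1.15 and 0.983. These overlap, with changes of -0.02 ± 0.07 and 0.02 ± 0.11. In cerebellum the first read 1.00, 1.03 and 0.931 against 0.859 and 0.820, and the second 1.06, 1.00 and 0.824 against 0.867 and 0.712. Both leaned the same way, at -0.23 ± 0.07 (adjusted p = 0.0598, 95% interval -0.40 to -0.06) and -0.28 ± 0.13 (adjusted p = 0.159).

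Eif4e1b, a cap-binding paralog known from oocytes, fell in the hypothalamus. Its scaled ratios were 1.03, 1.00 and 0.813 in fed and 0.483, 0.284 and 0.428 in fasted tissue, a change of -1.28 ± 0.23 (adjusted p = 0.0116), or 2.43-fold lower. In cerebellum the fed arrays gave 1.00, 0.793 and 1.06 and the fasted arrays 1.5 and 0.937, which overlap (0.33 ± 0.26, adjusted p = 0.432). Its residual SD between arrays was 0.32, against a median of 0.08 for all 60 probes, and whether the probe rises above background cannot be seen in ratios. The paralogs Eif4e2 and Eif4e3, which bind the cap more weakly, lay between -0.16 and 0.09 and were not called.

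Eif4ebp2 encodes 4E-BP2, the eIF4E inhibitor that prevails in brain. In hypothalamus its scaled ratios were 1.06, 1.00 and 0.948 in fed and 0.778, 0.682 and 0.711 in fasted tissue. In cerebellum they were 0.993, 1.03 and 1.00 in fed and 1.21 and 1.30 in fasted tissue. All fasted arrays were below the fed arrays in hypothalamus and above them in cerebellum. The fall in hypothalamus was -0.47 ± 0.06 (1.39-fold, adjusted p = 0.00341) and the rise in cerebellum 0.31 ± 0.07 (1.24-fold, adjusted p = 0.0132). The hypothalamus call was kept without any 1 of the 11 arrays, and the cerebellum call was lost without fasted replicate 2 of the cerebellum (adjusted p = 0.0911).

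The other 4E-binding proteins were not called. Eif4ebp1, the form prominent in peripheral tissue and a target of the amino acid response factor Atf4, read 1.00, 1.09 and 0.976 in fed and 0.996, 0.964 and 0.902 in fasted hypothalamus. In cerebellum it read 1.00, 1.01 and 0.994 in fed and 1.05 and 1.01 in fasted tissue. Its changes were -0.10 ± 0.05 (95% interval -0.22 to 0.02) and 0.05 ± 0.06 (-0.09 to 0.18). Eif4ebp3 stood at 0.06 in each region. Eif4enif1, which carries eIF4E into the nucleus, stood at 0.05 and -0.13.

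Eif4g2 encodes DAP5, an eIF4G relative that lacks the eIF4E-binding part and serves initiation without the cap-binding protein. On the probe with the smaller spread the cerebellum values were 1.00, 0.993 and 1.01 in fed and 0.659 and 0.658 in fasted tissue. Both fasted arrays lay well below the fed arrays, by -0.61 ± 0.05 (1.52-fold, adjusted p = 7.43e-05). The other Eif4g2 probe stood at -0.20 in cerebellum and was not called (adjusted p = 0.312). In hypothalamus the first probe read 1.01, 1.00 and 0.952 in fed and 1.10, 1.06 and 0.995 in fasted tissue, and the probes stood at 0.09 and 0.28, not called. Both probes of the scaffold Eif4g3 lay between -0.07 and -0.01 in the 2 regions.

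The helicase genes showed no call in either region. Eif4a1, the main helicase of the cap complex, read 1.04, 1.00 and 0.972 in fed and 0.997, 1.01 and 0.982 in fasted hypothalamus, and 0.983, 1.04 and 1.00 against 0.924 and 1.16 in cerebellum. Its changes were -0.01 ± 0.07 (95% interval -0.18 to 0.16) and 0.04 ± 0.08 (-0.15 to 0.23). Eif4a2 stood at 0.05 in both. The 4 probes of Eif4a3, which belongs to the exon junction complex, lay between -0.02 and 0.25 in hypothalamus and between 0.01 and 0.20 in cerebellum. The helicase cofactors Eif4b and Eif4h lay between -0.15 and 0.16.

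Of the late factors, Eif5a rose in cerebellum. It encodes the hypusine-bearing protein that helps ribosomes past difficult peptide bonds. Its fed arrays gave 1.15, 1.00 and 1.00 and its fasted arrays 1.45 and 1.23, a change of 0.35 ± 0.09 (adjusted p = 0.0194). In hypothalamus 1.00, 0.976 and 1.01 stood against 0.959, 0.922 and 0.884, with no overlap but a change of only -0.11 ± 0.08 (adjusted p = 0.348). The cerebellum call was lost without fed replicate 2 (0.0599) or 3 (0.0546) or fasted replicate 1 (0.151) of the cerebellum. Its paralog Eif5a2 stood at 0.20 and 0.24, not called.

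Eif5, which triggers GTP hydrolysis on eIF2, read 1.09, 1.00 and 0.982 in fed and 1.06, 0.979 and 1.03 in fasted hypothalamus, and 1.00, 1.05 and 0.980 against 0.983 and 0.933 in cerebellum. Its changes were 0.00 ± 0.05 (95% interval -0.12 to 0.13) and -0.08 ± 0.06 (-0.21 to 0.06). Eif5b, which joins the large subunit, stood at -0.02 and 0.03. Eif6 keeps the large subunit from joining too early. It read 1.00, 1.04 and 0.888 in fed and 0.895, 0.880 and 0.773 in fasted hypothalamus, and 1.05, 0.970 and 1.00 against 1.16 and 1.18 in cerebellum. Its changes were -0.20 ± 0.07 (adjusted p = 0.103) and 0.22 ± 0.08 (adjusted p = 0.0949), neither called. Eif1b and Eif1ad stood at -0.11 each in hypothalamus and at 0.10 and 0.17 in cerebellum, and Eif2c5 at 0.15 and 0.13. None of these was called.

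Whether the change differed between regions was tested with the interaction of the same fit, as the change in hypothalamus minus that in cerebellum. It was called for 9 of 60 probes (15%, against 17.7% of all probes), with 3 positive differences (5%, against 8.66% of all probes) and 6 negative ones (10%, against 9.01%). At least 1.5-fold was reached by 4 of them (6.67%, against 5.9%), and 23 of all 60 differences were positive, called or not (38.3%, against 51.5%). The largest was Eif4e1b at -1.61 ± 0.35 (adjusted p = 0.0146), followed by Eif2ak1 at 1.29 ± 0.15 (adjusted p = 0.000627), Eif4ebp2 at -0.78 ± 0.09 (adjusted p = 0.000773) and Eif4g2 at 0.69 ± 0.07 (adjusted p = 0.000283). Eif3a differed by 0.57 ± 0.09 (adjusted p = 0.00284). Eif2s2, Eif3e, Eif5a and Eif6 differed by between -0.46 and -0.36. The calls of Eif2ak1, Eif3a, Eif4ebp2 and Eif4g2 held without any 1 of the 11 arrays. Eif4e1b lost it without fasted replicate 1 of the cerebellum (adjusted p = 0.0558).

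The smaller differences each depended on several arrays. Eif2s2 was called without fed replicate 3 or fasted replicate 2 of the hypothalamus and lost its call without any other array (adjusted p from 0.0502 to 0.109). Eif3e lost it without fed replicate 1 or 2 or fasted replicate 2 or 3 of the hypothalamus, or without fed replicate 2 or 3 or either fasted replicate of the cerebellum (0.0819 to 0.116). Eif5a lost it without fasted replicate 2 or 3 of the hypothalamus, or without fed replicate 2 or 3 or fasted replicate 1 of the cerebellum (0.0519 to 0.0887). Eif6 lost it without fed replicate 1 or 2 or fasted replicate 3 of the hypothalamus, or without fed replicate 2 or 3 or either fasted replicate of the cerebellum (0.053 to 0.0878).

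**Figure D3:**
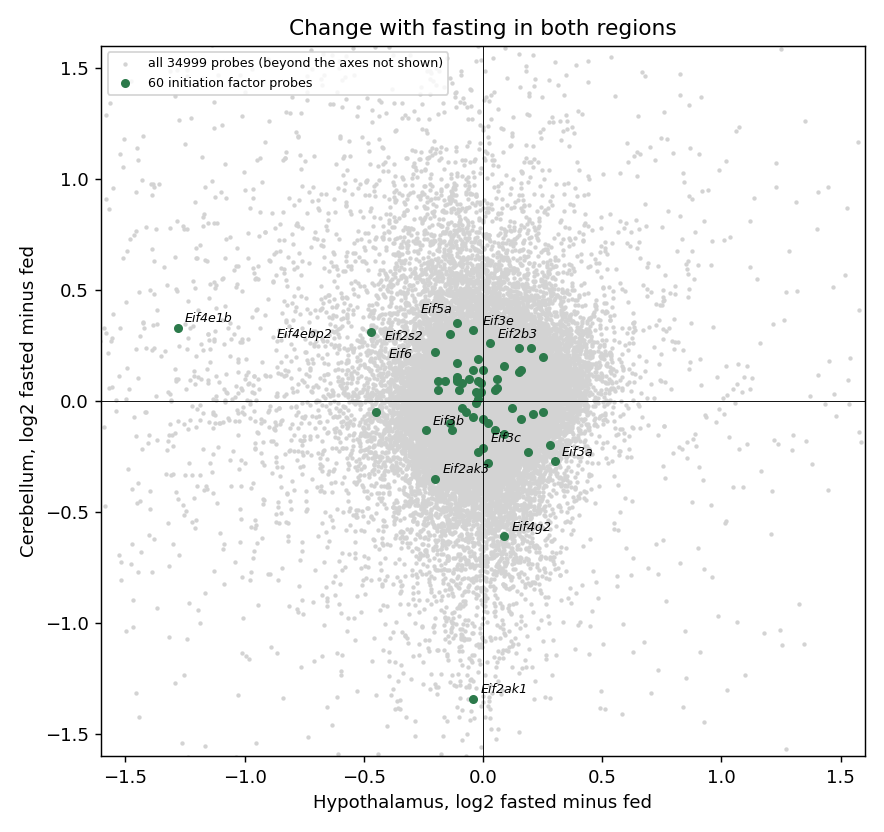
Change with fasting in hypothalamus (x axis) against cerebellum (y axis), both log2 fasted minus fed, for the 60 initiation factor probes (green) and all probes (grey, those beyond 1.6 left out); named points were called in a region or for the difference. Most green points crowd near 0, Eif3a and Eif4ebp2 lie in the quadrants of opposite signs, and Eif2ak1 and Eif4g2 lie low at a hypothalamus change near 0.

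Side by side, 39 of 60 probes had opposite signs in the 2 regions (65%, against 47% of all probes), most of them with small values. Both regions were called for 2 members, Eif3a and Eif4ebp2, in opposite directions (3.33%, against 1.94% of all probes), and 0 of 60 were called by limma in the same direction in both (against 2.67%). With arrays scaled to their 75th percentile, the rises of Eif3a in hypothalamus (0.19, adjusted p = 0.0638) and Eif4ebp2 in cerebellum (0.18, adjusted p = 0.0725) were not called. Nor were the cerebellum rises of Eif2b3 (0.13, adjusted p = 0.264), Eif2s2 (0.17, 0.149), Eif3e (0.19, 0.0986) and Eif5a (0.22, 0.099). Without scaling, those of Eif2b3 (adjusted p = 0.056) and Eif2s2 (0.0655) were also lost. A fit of only the cerebellum arrays lost those of Eif2s2 (adjusted p = 0.0512) and Eif5a (0.107). With quantile normalization none of these genes was called in either region, where 0.0914% and 1.26% of all probes were called. In the average of both regions 5 probes were called (8.33%, against 22.7% of all probes), 1 higher (1.67%, against 10.1%) and 4 lower (6.67%, against 12.6%). Of these 1 reached 1.5-fold (1.67%, against 1.02%), and 31 of 60 averages were positive, called or not (51.7%, against 51.8%). These were Eif2ak1 (-0.69), Eif2ak3 (-0.27), Eif4g2 (-0.26), the same Eif3b probe as above (-0.18) and 1 Eif4a3 probe (0.22), which lost its call without any 1 array other than fasted replicate 1 of the hypothalamus or fasted replicate 2 of the cerebellum (adjusted p from 0.0538 to 0.149). With the 4 pools as units in place of arrays, 0 of 60 members and 0 of all 34999 probes were called by limma, with 0 members at an unadjusted p under 0.05, so that fit says nothing about these genes in particular.

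Promoters of 36 of the 46 genes were found in RefSeq (GRCm38.p6), each 250 bases before to 50 after the start site. The E-box CACGTG, which reads the same on both strands and is bound by Myc and by the clock factors, was present in 9 of the 36 genes (25%), against 8.09% of all 27025 genes with a promoter and 8.91% of the protein-coding ones. The gene for eIF4E is known as a Myc target. Boxes of Eif1b, Eif3f, Eif3k, Eif4h and Eif5a2 are not printed. Stretches are shown for the genes with a box whose array values are given above, which include both with a called probe. They are in lower case with the E-box in capitals, on the strand of the gene.
Eif4e, first box (chr3:138527028-138527057, + strand): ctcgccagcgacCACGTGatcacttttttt
Eif4e, second box (chr3:138527192-138527221, + strand): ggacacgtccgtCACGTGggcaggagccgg
Eif3a (chr19:60790654-60790683, - strand): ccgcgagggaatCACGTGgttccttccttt
Eif4a1 (chr11:69672595-69672624, - strand): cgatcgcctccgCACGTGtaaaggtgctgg
Eif5a, first box (chr11:69920791-69920820, - strand): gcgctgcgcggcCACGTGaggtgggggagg
Eif5a, second box (chr11:69921443-69921472, - strand): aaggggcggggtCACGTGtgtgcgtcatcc
The boxes of Eif4e begin at -228 and -64 from a RefSeq start of the gene, and that of Eif4a1 at -189. The first Eif5a box begins at -178 from a start of that gene, and the second at -185 and -74 from others. The box of Eif3a begins at base 23 of the transcript. The 9 genes had 11 probes. In hypothalamus 1 of these was called higher (Eif3a) and 0 lower, where 14.2% of all probes were called. In cerebellum 1 was called higher (Eif5a) and 1 lower (Eif3a), where 20.9% of all probes were called. The other probes, those of Eif4e and Eif4a1 among them, were uncalled in both regions. Of 35 member probes of genes with a promoter and no box, 0 were called higher and 2 lower in hypothalamus, and 2 higher and 3 lower in cerebellum. The shares called over all probes were the same 14.2% and 20.9%. A match of letters is no evidence of binding.

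The cAMP response element TGACGTCA was in 0 of the 36 genes (2.03% of all), and the C/EBP-ATF element TGATGNAA, on either strand, also in 0 (4.51% of all). A terminal pyrimidine run, meaning C at the start site followed by at least 4 bases of C or T, is the mark through which mTORC1 controls translation of ribosomal protein mRNAs. It was found for 2 of 36 genes, Eif3f and Eif2c5 (5.56%, against 3.01% of all), neither of which was called. The annotated start sites may be off by some bases, which this search cannot allow for.

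Genes around the initiation factors were read from lists of the pathway, against 6.34% of all probes higher and 7.89% lower in hypothalamus and 9.66% and 11.2% in cerebellum. Among partners of eIF2 phosphatase and GCN2, 2 of 12 probes fell and 0 rose in hypothalamus, and 1 fell and 0 rose in cerebellum. Gcn1, the activator of GCN2, fell by -0.27 ± 0.06 in hypothalamus (adjusted p = 0.0248), with other probes at -0.20 and -0.25 (adjusted p = 0.0562 and 0.0567). Ppp1r15b, the standing partner of eIF2 phosphatase, stood at -0.20 ± 0.06 (adjusted p = 0.0472), and lost its call without any 1 of the 11 arrays (adjusted p from 0.0523 to 0.107). Ppp1cb, a catalytic subunit of protein phosphatase 1, fell by -0.90 ± 0.10 in cerebellum, from 1.00, 1.12 and 0.919 to 0.542 and 0.540 (adjusted p = 0.000352). The stress-response factor Atf4 stood at -0.16 ± 0.07 and 0.11 ± 0.07 and was not called. Gcn1 lost its call without fed replicate 1 (0.0684) or 2 (0.0817) or fasted replicate 2 (0.0769) or 3 (0.0741) of the hypothalamus.

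Among 38 probes of mTORC1 and its controls, 2 rose and 6 fell in hypothalamus, and 4 rose and 7 fell in cerebellum. Deptor, an inhibitor of mTOR, fell by -0.47 ± 0.07 in hypothalamus on 1 probe (adjusted p = 0.00543) and by -0.18 on another, while in cerebellum the remaining probe rose by 0.53 ± 0.07 (adjusted p = 0.000656). The other Deptor probes in cerebellum, at 0.03 and 0.14, were not called. Lamtor5, which helps anchor mTORC1 at the lysosome, fell by -0.27 ± 0.05 in hypothalamus (adjusted p = 0.0107). Tsc1, a brake on mTORC1, rose by 0.28 ± 0.08 there (adjusted p = 0.0465), and lost this call without any 1 array other than fed replicate 3 of the cerebellum (adjusted p from 0.0549 to 0.127). In cerebellum Sesn1, an amino acid sensor, fell by -1.08 ± 0.13 on 1 probe and by -0.15 ± 0.04 on another (adjusted p = 0.000571 and 0.0313). Depdc5 fell there by -0.34 ± 0.05 on 1 probe and by -0.23 ± 0.06 on another (adjusted p = 0.00216 and 0.0291). The first Depdc5 probe was also called lower in hypothalamus, at -0.22 ± 0.05 (adjusted p = 0.021). The second stood at -0.12 ± 0.05 in hypothalamus and was not called (adjusted p = 0.158). Mtor itself stood at -0.05 ± 0.08 and -0.20 ± 0.09, not called.

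Among 27 probes of cap and poly(A) factors, 2 rose and 2 fell in hypothalamus, and 1 rose and 5 fell in cerebellum. All 3 probes of Pabpc4, a poly(A)-binding protein, fell in cerebellum, by -1.33 ± 0.07, -0.48 ± 0.05 and -0.31 ± 0.08 (adjusted p = 8.53e-06, 0.000366 and 0.0276), and none was called in hypothalamus. The first of them read 1.07, 1.00 and 0.936 in fed and 0.413 and 0.382 in fasted cerebellum. Paip2b, which holds back poly(A)-binding protein, fell by -0.39 ± 0.07 in cerebellum on 1 probe (adjusted p = 0.00459). The other Paip2b probe stood at 0.02 ± 0.07 there and was not called (adjusted p = 0.855). In hypothalamus Cpeb2, an mRNA-binding repressor, fell by -0.39 ± 0.07 (adjusted p = 0.00839). Mknk1, a kinase of eIF4E, rose by 0.27 ± 0.07 in hypothalamus (adjusted p = 0.031) and fell by -0.24 ± 0.07 in cerebellum (adjusted p = 0.0472). The helicase Dhx29 rose by 0.25 ± 0.06 in hypothalamus on 1 of its 2 probes (adjusted p = 0.0237). That probe stood at 0.03 ± 0.06 in cerebellum, not called. The other Dhx29 probe leaned the opposite way in hypothalamus, at -0.15 ± 0.08, and was not called (adjusted p = 0.246). It was called higher in cerebellum, at 0.31 ± 0.09 (adjusted p = 0.047). In hypothalamus Mknk1 lost its call without fed replicate 2 or 3 or any 1 fasted array of that region (0.0629 to 0.0862), and Dhx29 without fed replicate 1 or 2 or fasted replicate 1 or 3 (0.0582 to 0.0834).

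Elongation and termination factors were called on 2 of 15 probes in hypothalamus, both higher, and on 4 in cerebellum, 1 higher and 3 lower. Eef2, which moves the ribosome along, read 1.00, 1.07 and 0.914 in fed and 0.391 and 0.368 in fasted cerebellum, a fall of -1.39 ± 0.08 (adjusted p = 1.65e-05), and stood at 0.03 ± 0.07 in hypothalamus. Its kinase Eef2k rose by 0.23 ± 0.04 in hypothalamus (adjusted p = 0.00684) and fell by -0.32 ± 0.04 in cerebellum (adjusted p = 0.000648). Eef1a1 rose by 0.29 ± 0.08 in hypothalamus on 1 of 2 probes (adjusted p = 0.0393), a call lost without any 1 array of that region other than fed replicate 3 (0.0713 to 0.119), and without fed replicate 2 (0.0504) or either fasted replicate (0.053 each) of the cerebellum. Gspt2, a release factor, fell by -0.38 ± 0.10 in cerebellum on 1 probe (adjusted p = 0.0243). This call was lost without fed replicate 1 (0.0582) or 2 (0.0652) or either fasted replicate (0.0555 and 0.137). The other Gspt2 probe stood at -0.10 ± 0.06 there and was not called (adjusted p = 0.26). The mitochondrial initiation factor Mtif2 fell by -0.59 ± 0.05 in cerebellum on 1 probe (adjusted p = 7.98e-05), while its other probe stood at 0.55 ± 0.17 (adjusted p = 0.0506). The first probe was higher by 0.17 in hypothalamus (adjusted p = 0.0409), a call lost without any 1 array other than fed replicate 1 of the hypothalamus or fed replicate 3 of the cerebellum (0.0571 to 0.123).

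**Figure D4:**
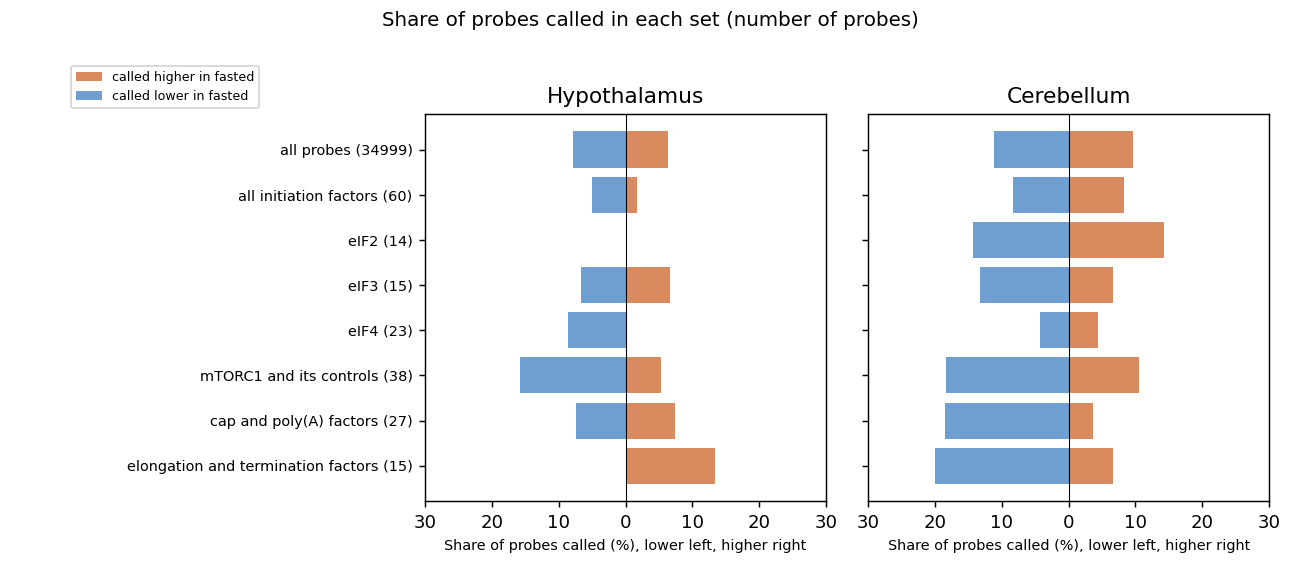
Share of probes called higher (right) and lower (left) in fasted tissue, in percent of each set, with the number of probes in brackets, for all probes, all initiation factors, the 3 largest factor groups and 3 pathway lists. In hypothalamus the initiation factors reach 1.67% higher and 5% lower against 6.34% and 7.89% of all probes, and in cerebellum 8.33% each way against 9.66% and 11.2%.

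Markers of other cells and neighbouring tissue also moved between the pools, where 6.34% of all probes were higher and 7.89% lower in hypothalamus and 9.66% and 11.2% in cerebellum. In hypothalamus 7 of 13 thalamus probes, 3 of 8 oligodendrocyte, 4 of 9 astrocyte, 4 of 5 microglia, 3 of 9 pan-neuronal and 1 of 4 choroid plexus probes fell, and 0 rose in these lists. There 5 of 7 probes of meninges and pericytes rose and 0 fell, and 6 of 13 probes of granule and Purkinje cells rose and 1 fell. In cerebellum 4 of 7 probes of meninges and pericytes, 4 of 8 oligodendrocyte, 2 of 4 choroid plexus, 2 of 13 thalamus and 2 of 13 granule and Purkinje probes fell, and 0 rose in these lists. There 2 astrocyte probes rose and 3 fell of 9, 3 pan-neuronal probes rose and 1 fell of 9, and 0 of 5 microglia probes were called by limma. Of 8 pituitary probes 3 rose and 1 fell in hypothalamus (median 0.18, from -0.31 to 3.60), and 3 rose and 0 fell in cerebellum (median 0.11, from 0.02 to 3.07), with the hormone gene Prl the highest in both. The 1 blood probe rose in both regions. The part of these marker changes in the changes of the initiation factors was not tested.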

How the data were processed

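The authors' deposited table gives 34999 probes on 11 arrays as ratios to fed tissue: in each region the 3 fed values of a probe have a median of 1 (tolerance 1e-06). How signals were read, corrected for background and scaled is not given in the sources used here. Their values point to a linear scale, which no label states. Each array was divided by its median, values under 0.1 were set to 0.1 (no member was), and log2 was taken. With limma 3.58.1 in R 4.3.3, 4 group means were fitted over all arrays (7 residual and 1.82 prior degrees of freedom), with two-sided moderated tests adjusted by Benjamini-Hochberg over all probes. The variance prior had no intensity trend, because ratios keep no intensity. The number of arrays limits the precision.

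Genes were named from the platform annotation, where 21590 probes had 1 symbol, 681 several and 12728 none here. All 60 member probes matched RefSeq genes of GRCm38.p6 and 0 symbols changed. The 4 probes with several symbols, 1 of them an initiation factor, were not used.

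Array values are given for up to 3 called probes per factor and region, up to 2 called for the difference, and for a fixed list of core factors, called or not; up to 3 called probes per pathway list and region are named. Members, lists and rules were chosen with earlier results of these data known. The fit was tested on simulated data.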

Additional observations from a re-analysis of the deposited data

Results flagged for a closer look

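The change with fasting differed between hypothalamus and cerebellum for 9 initiation factor probes, by the interaction test of limma adjusted over all probes. As hypothalamus minus cerebellum, the log2 difference was 1.29 for Eif2ak1 (adjusted p = 0.000627), 0.69 for Eif4g2 (0.000283), -0.78 for Eif4ebp2 (0.000773) and 0.57 for Eif3a (0.00284). It was -1.61 for Eif4e1b (0.0146), -0.46 for Eif5a (0.0247), -0.42 for Eif6 (0.0313), -0.44 for Eif2s2 (0.0378) and -0.36 for Eif3e (0.0421). For Eif3a and Eif4ebp2 the change was called in both regions, in opposite directions, with the scaling reported here. For Eif2ak1, Eif4g2, Eif2s2, Eif3e and Eif5a it was called in cerebellum alone, for Eif4e1b in hypothalamus alone, and for Eif6 in neither region. No group was large enough to look for a single outlying array.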

How the results depend on the processing

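The reported counts of members called were 4 in hypothalamus, 10 in cerebellum, 9 for the region difference and 5 for the average. Leaving out 1 array at a time gave 2 to 7, 4 to 11, 4 to 10 and 4 to 7. In hypothalamus, 2 calls were made when the second fasted array of that region was dropped (replicate 2), and 7 were made when fed replicate 3 was dropped. In cerebellum, dropping its fed replicate 1 gave 6, its fed replicate 2 gave 5 (4 of them among the reported 10), and each of its fasted arrays gave 4 (3 of them among the reported without replicate 2). For the difference, 5 were called on dropping the cerebellum array fed replicate 2, and 4 on dropping fasted replicate 1 there. Quantile normalization gave 0 (limma; 3 at an unadjusted p under 0.05), 1, 1 and 1, with 0.0914%, 1.26%, 0.437% and 0.64% of all probes called. Scaling to the 75th percentile gave 18 in hypothalamus, 17 in cerebellum and 24 for the average (30%, 28.3% and 40%, against 26.4%, 31.7% and 39.3% of all probes). Without scaling the average had 8 (13.3%, against 24.4%). In a fit of only the groups compared the hypothalamus had 2 (3.33%, against 6.31%). With pools as units the average had 0, as did all probes. With the replicate number as a block the counts were 4, 10, 10 and 7 over all arrays. In the arrays of 1 region the block gave 0 in hypothalamus and 0 in cerebellum (limma; 15 and 12 at an unadjusted p under 0.05), where 0.137% and 0% of all probes were called. Deviations of same-numbered hypothalamus arrays correlated at 0.07, 0.10 and 0.07, each the highest for its array. In cerebellum they correlated at 0.04 and -0.02, but the deviations of its 2 fasted arrays mirror each other, so these values cannot show pairing. The reported fit did not take the numbers as pairs, and whether they are pairs was not settled. The floor of 0.01, the variance trend and the filter on extreme ratios left all 4 counts as reported. Among the member calls and the 11 pathway calls per region chosen by the naming rule, no direction was reversed under any alternative run. Further called probes named beside them (of Deptor, Sesn1, Depdc5, Pabpc4, Mknk1 and Dhx29) were not followed. Only the difference of Eif2ak1 between regions was called under each of its 18 alternatives. These did not include fits of 1 region or pools as units. With the block in 1 region its cerebellum change was not called (-1.37, adjusted p = 0.118). With pools as units its average was not called (-0.69, adjusted p = 0.889). The cause of these shifts was not tested.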
